A study of Homo sapiens with 5 samples.

Results

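The 10 genes described here form the core of the retinoblastoma pathway and its G1 kinases: the inhibitors CDKN2A, CDKN2B and CDKN1B, the cyclins CCND1 and CCNE1, the kinases CDK4 and CDK6, and the pocket proteins RB1, RBL1 and RBL2. They were listed by name and not by a cutoff on their signal, though with earlier results of these data known. The annotation holds 64448 genes, of which 20163 are protein-coding. A promoter was taken as 1 kb on either side of any annotated transcription start site (TSS), and a gene with a PHF8 peak in such a window in all 3 replicates was called a target. The study used a rule of the same kind and reported fewer targets, so the targets here are not its list. PHF8 is a Jumonji C histone demethylase that acts on methylated histone tails, and the study asked where it sits on chromatin in melanoma. The established human melanoma line SKMEL-147 was profiled by chromatin immunoprecipitation and sequencing (ChIP-seq), using an Abcam antibody against PHF8, in 3 replicates, A, B1 and B2, and 2 inputs, A and B, were sequenced beside them. The labels of these 5 samples name no treatment or genotype, so they form a single ChIP group with its inputs, and no contrast between conditions exists. Nothing says that the replicates came from separate cultures, and the spread between them may therefore be technical. A single input bears the letter of B1 and B2, so these replicates may share their control and are not fully independent of each other. The deposited lists carry the tag scr in their names, which the labels do not explain.

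In G1, cyclin D with CDK4 or CDK6, and then cyclin E with its kinase, phosphorylate the pocket proteins, which otherwise hold E2F transcription factors in check. The INK4 inhibitors p16 and p15, encoded by CDKN2A and CDKN2B, bind CDK4 and CDK6, whereas p27, encoded by CDKN1B, acts on cyclin and kinase complexes more broadly. CDKN2A also encodes p14ARF from a separate upstream first exon, and it is a well known familial melanoma gene.

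The lists held 21506 peaks in A, 20882 in B1 and 20120 in B2. Fold enrichment, the ratio of ChIP signal to the local background at the summit of a peak, ran on a different scale in each list. Its median over the 16541 target genes was 32.4, 18.8 and 17.7 in A, B1 and B2. Each gene is therefore also given as a percentile, which is the rank of its strongest promoter peak among all target genes of the same replicate. ChIP fragments per summit were recovered from the deposited values, with a 95% Poisson interval that covers counting error only. No called summit had fewer than 8, 8 and 10 fragments (A, B1, B2), so that binding below these levels was not detectable at this depth.

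Of the 10 genes, 9 were PHF8 targets (90%), against 60.2% of protein-coding genes and 25.7% of all annotated genes. CDKN2B was the exception and had no promoter peak in any replicate. No gene was bound in only 1 or 2 replicates. When a fold enrichment above 10 was required in all 3 replicates, 7 genes remained, and the share of protein-coding genes was 49.6%. The genes just outside that limit were CDKN1B, with a lowest value of 9.74, and CCNE1, with 7.66, and the gene just inside was CDK6, with 10.2. The bound genes lay around the middle of the range of targets. Their median percentile was 47.5, 42.0 and 38.2 in A, B1 and B2, a mean of 42.5 ± 4.70 (SD, n = 3).

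**Figure D1:**
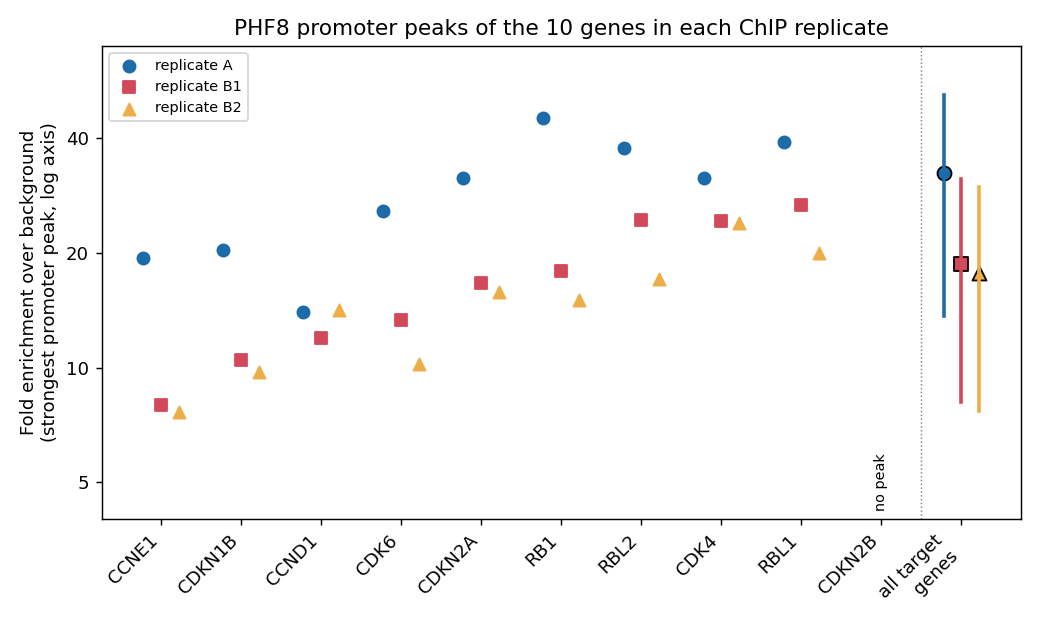
Fold enrichment (log axis) of the strongest promoter peak of each gene in replicates A, B1 and B2, with the median (outlined symbol) and the span from the 10th to the 90th percentile (bar) of all target genes at the right. CDKN2B has no peak, CCNE1 falls to 7.66 in B2, RB1 reaches 45.2 in A, and CCND1 is the gene whose A value lies no higher than its B2 value.

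The genes carry 76 annotated TSSs, and 44 of them had a peak in their window in all 3 replicates (57.9%), against 44.7% of the TSSs of protein-coding genes. These TSSs are not independent, because many lie a few bases apart under the same peak. CDK4 alone supplied 13 of the 44, so the shares of TSSs depend on how densely single genes are annotated. The sequence around the TSS separated these starts. A TSS counted as CpG-island-like where the 250 bp on either side had a GC share of 0.5 or more and CpG dinucleotides at 0.6 or more of the number expected from base composition. Among the CpG-island-like TSSs of the genes 39 of 49 were bound (79.6%), against 84.0% of such TSSs of all protein-coding genes. Among the other TSSs 5 of 27 were bound (18.5%), against 11.2%. The 10 CpG-island-like TSSs that were not bound in all replicates comprised 5 of CDKN2A, 3 of CDKN2B and 2 of CDK6. Those of CDK6 had a peak in 2 replicates each, and those of CDKN2A and CDKN2B had none in any.

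CDKN2A (ENSG00000147889, chr9:21967751-21995300 of GRCh37, minus strand) was bound at its p16 start and not at its p14ARF start. The peak at the p16 start had a fold enrichment of 31.4, 16.7 and 15.8 in A, B1 and B2. It rested on 83, 48 and 47 fragments, with intervals of 66.1 to 103, 35.4 to 63.6 and 34.5 to 62.5. A stood above both B replicates on either measure, as most targets did, and the percentile of CDKN2A was therefore steady, at 47.5, 42.0 and 41.3 (mean 43.6 ± 3.40, SD, n = 3). The summit lay in the p16 coding exon at the start, 103 bp downstream of the nearest TSS in A, 100 bp in B1 and 110 bp in B2. In B2 a second, weaker peak with a fold enrichment of 9.37 lay 262 bp upstream, in a stretch that the single wide peaks of A and B1 covered.

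Of the 13 TSSs of CDKN2A, the 4 clustered at the p16 start were bound in all 3 replicates. The 5 on the p14ARF side, about 20 kb upstream, had no peak in any replicate although all 5 were CpG-island-like. The nearest PHF8 peak to the p14ARF start was the p16 peak itself, 18.9 kb away in A, and no replicate had a peak within 10 kb. The absence of PHF8 from the CDKN2A locus, which was looked for here, was therefore seen on the p14ARF side of the gene and at CDKN2B, but not at the p16 start. The remaining 4 TSSs, inside the gene and not CpG-island-like, had no peak either. When the 5′ end of the record alone was taken as TSS, which falls on the p14ARF side, CDKN2A was no longer a target.

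CDKN2B (ENSG00000147883, chr9:22002902-22009304, minus strand), whose product p15 also inhibits CDK4 and CDK6, had 3 TSSs, all CpG-island-like and all without a peak. Its nearest PHF8 peak was again that of p16, 33.8 kb from its 5′ end. The peak lists hold no value for input reads at CDKN2B, so a promoter without binding and one with too few mapped reads cannot be told apart there. All 3 promoters of the locus were rich in CpG. The 150 bases upstream of the p16 start, which was bound, held 12 CG dinucleotides at a GC content of 68.7%. The same stretch held 12 at 74% for p14ARF and 14 at 72% for CDKN2B, neither of which was bound. These sequences are shown to set the bound start beside its unbound neighbours, in lower case and read 5′ to 3′ toward the gene from the GRCh37 genome:
CDKN2A p16 start, chr9:21974866-21975015, minus strand: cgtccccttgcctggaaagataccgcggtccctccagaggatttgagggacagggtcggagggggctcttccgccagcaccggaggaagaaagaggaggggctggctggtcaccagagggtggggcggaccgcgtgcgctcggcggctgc
CDKN2A p14ARF start, chr9:21994411-21994560, minus strand: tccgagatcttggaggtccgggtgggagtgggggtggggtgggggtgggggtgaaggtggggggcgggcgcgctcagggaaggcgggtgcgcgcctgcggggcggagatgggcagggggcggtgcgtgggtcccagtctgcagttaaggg
CDKN2B start, chr9:22009305-22009454, minus strand: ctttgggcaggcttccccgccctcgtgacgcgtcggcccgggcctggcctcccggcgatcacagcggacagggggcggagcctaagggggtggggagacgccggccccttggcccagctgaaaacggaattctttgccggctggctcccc

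The wider 9p21 region carried few peaks. From the p16 peak across p14ARF and CDKN2B, the next peak lay at the DMRTA1 promoter, after a stretch without peaks of 471 kb in every replicate (mean 471.2 ± 0.206 kb, SD, n = 3). This length stood at the 93.4th, 93.3rd and 93.0th percentile of all stretches between neighbouring peaks in A, B1 and B2, whose medians were 25.7, 25.2 and 26.3 kb. On the other side, the next peak was at MTAP after 171 kb, at the 82.5 ± 0.420 percentile.

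Of the 22 protein-coding genes with a 5′ end within 1 Mb of CDKN2A, 4 were targets, beside the 60.2% of all protein-coding genes. Interferon genes made up 16 of the 22, and 0 of them had a peak. None of the interferon genes had a CpG-island-like 5′ end, and only 11.2% of TSSs of that kind were bound among protein-coding genes. The 60.2% is therefore not a like comparison for this region. Of the other 6 genes, all with a CpG-island-like 5′ end, CDKN2A, KLHL9, MTAP and DMRTA1 were targets, and HACD4 and CDKN2B were not. MTAP, a methionine salvage enzyme, had fold enrichments of 37.8, 19.1 and 21.4 in A, B1 and B2. KLHL9, an adaptor of a ubiquitin ligase, had 36.3, 21.1 and 23.2. DMRTA1 had 15.2, 12.6 and 14.8. The p16 peak was above that of DMRTA1 and below those of MTAP and KLHL9 in all 3 replicates. A further peak at MIR31HG, the host transcript of a microRNA, differed more between replicates, with a fold enrichment of 32.0, 7.76 and 6.65 in A, B1 and B2. It rested on 83, 53 and 47 fragments, so that the replicates lay closer together in fragments than in fold enrichment.

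**Figure D2:**
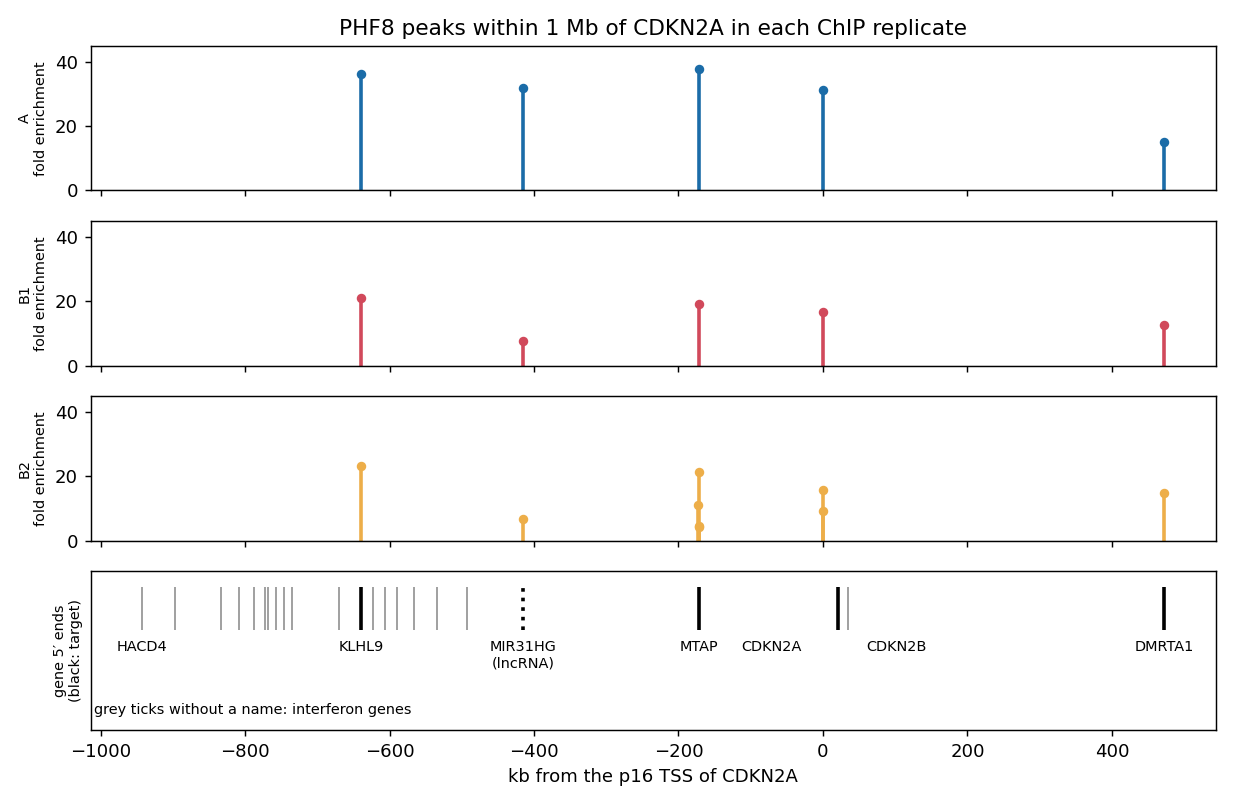
PHF8 peaks in the region around CDKN2A, as fold enrichment against distance in kb from the p16 TSS for A, B1 and B2, with the 5′ ends of protein-coding genes in the lowest panel (black ticks are targets, grey ticks are not, and the dotted tick is MIR31HG). The tick of CDKN2A marks the 5′ end of its record, about 20 kb from the peak at 0, and no replicate has a peak between the p16 promoter and DMRTA1.

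CDKN1B (ENSG00000111276) encodes p27, the broader inhibitor. Its strongest promoter peak had a fold enrichment of 20.4, 10.4 and 9.74 in A, B1 and B2. It carried 74, 45 and 31 fragments, and its percentile was 21.8, 17.7 and 16.5 (mean 18.6 ± 2.77, SD, n = 3). All 3 replicates therefore placed it in the lower part of the targets, although ranking by fragments in place of fold enrichment raised it to 32.3. The summit lay 264 bp upstream of the main TSS in A and 328 bp in B1, whereas in B2 the signal was split and the stronger of its peaks lay 114 bp downstream. The other B2 peak of the split signal held 48 fragments, and the ranking by fragments used that peak. About 21 kb upstream an alternative start carried its own peak, shared with the promoter of GPR19, with fold enrichments of 16.3, 9.57 and 8.19. This start supplied 3 of the 5 bound TSSs that were not CpG-island-like. When the 5′ end of the record alone was taken as TSS, a distal start without a peak, CDKN1B was no longer a target.

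CCND1 (ENSG00000110092), cyclin D1, had its signal spread over several small peaks, the strongest of which was no higher in A than in B2. The strongest peak reached a fold enrichment of 14.03, 11.9 and 14.1 in A, B1 and B2, on 35, 34 and 42 fragments with intervals of 24.4 to 48.7, 23.5 to 47.5 and 30.3 to 56.8. In fold enrichment B2 was thus the highest replicate, and the 3 intervals overlapped. The strongest peak of A was its upstream one, and its start-site peak held 44 fragments, with an interval of 32.0 to 59.1. The ratio of A to the mean of the B replicates was 1.08, at the 3.88th percentile of all targets, whose median ratio was 1.74. In fragments that ratio was 1.16, at the 7.03rd percentile. The ratio of fold enrichment sets the upstream peak of A against the start-site peaks of B1 and B2. The ratio of fragments takes the start-site peak in all 3 replicates, with 44, 34 and 42 fragments. Peak by peak, the upstream one had fold enrichments of 14.03, 6.43 and 10.4, highest in A, and the start-site one 12.2, 11.9 and 14.1, highest in B2. The percentile of CCND1 among targets consequently spread from 10.8 in A to 22.5 in B1 and 34.1 in B2 (mean 22.5 ± 11.6, SD, n = 3). Each replicate had 4 promoter peaks. The strongest was the upstream one in A, 261 bp before the TSS, and the one at the start site in B1 and B2, with summits 8 bp after and 6 bp before the nearest TSS. Upstream, 2 further regions shared by all replicates lay outside any promoter window. Their middles were 1784 bp and 2621 bp from the gene, with fold enrichments of 19.1, 13.0 and 11.2 at the nearer and 10.1, 3.77 and 5.91 at the farther. In A and B1 the nearer region exceeded every peak of the promoter itself.

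CCNE1 (ENSG00000105173), cyclin E1, was the lowest of the bound genes by mean percentile and in B1 and B2, whereas CCND1 was lowest in A. Its fold enrichment was 19.5, 7.97 and 7.66 in A, B1 and B2, on 51, 27 and 27 fragments. Its percentile was 19.9, 9.80 and 9.94 (mean 13.2 ± 5.79, SD, n = 3), with both B replicates alike and A above them. Peaks stood on both sides of the start, and they were nearly equal in B1 and B2. In A the stronger summit was 75 bp downstream of the nearest TSS, with an upstream peak of 15.9. In B1 and B2 the stronger summit lay 456 bp and 445 bp upstream, and the downstream peaks reached 7.28 and 7.61. Beyond the gene, 2 shared regions away from any TSS lay 32607 bp and 33472 bp downstream of its 5′ end. Their fold enrichments of 5.00, 4.66 and 5.45, and of 8.17, 8.69 and 7.09, were not higher in A than in both B replicates.

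The 2 kinases that cyclin D1 activates differed in level. CDK4 (ENSG00000135446) had a fold enrichment of 31.5, 24.2 and 24.0 in A, B1 and B2, on 115, 70 and 72 fragments. Its percentile was 47.7, 71.4 and 74.6 (mean 64.6 ± 14.7, SD, n = 3), lowest in A. The expected background at its summit was 2.68 fragments in A, against a genome-wide level of 1.57 there, whereas in B1 and B2 it equalled the genome-wide level. Its ratio of A to B was 1.31 in fold enrichment, at the 12.5th percentile of targets, and 1.62 in fragments, at the 70.2nd. CDK6 (ENSG00000105810) had 25.7, 13.3 and 10.2, on 65, 38 and 30 fragments, with a percentile of 33.2, 27.9 and 18.3 (mean 26.5 ± 7.56, SD, n = 3). CDK4 was above CDK6 in every replicate.

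Both kinases shared promoter sequence with a neighbour. The summits of CDK4 lay 66, 59 and 67 bp upstream of the nearest TSS in A, B1 and B2. That TSS belongs to a single transcript, and a cluster of 10 further CDK4 TSSs lies just upstream of the summits, which fall in a UTR of other CDK4 transcripts in A and B2 and in an intron in B1. Additional, weaker peaks at a distal CDK4 start were shared with MARCHF9, a membrane ubiquitin ligase gene, and reached 18.3, 7.35 and 7.40. With only the 5′ end of the record as TSS, CDK4 was represented by that distal start and its percentile fell to 11.5. The summits of CDK6 lay 221, 206 and 188 bp upstream, in a peak shared with the antisense gene CDK6-AS1. The peak lists do not carry strand, so divergent genes cannot be told apart in such a shared peak.

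**Figure D3:**
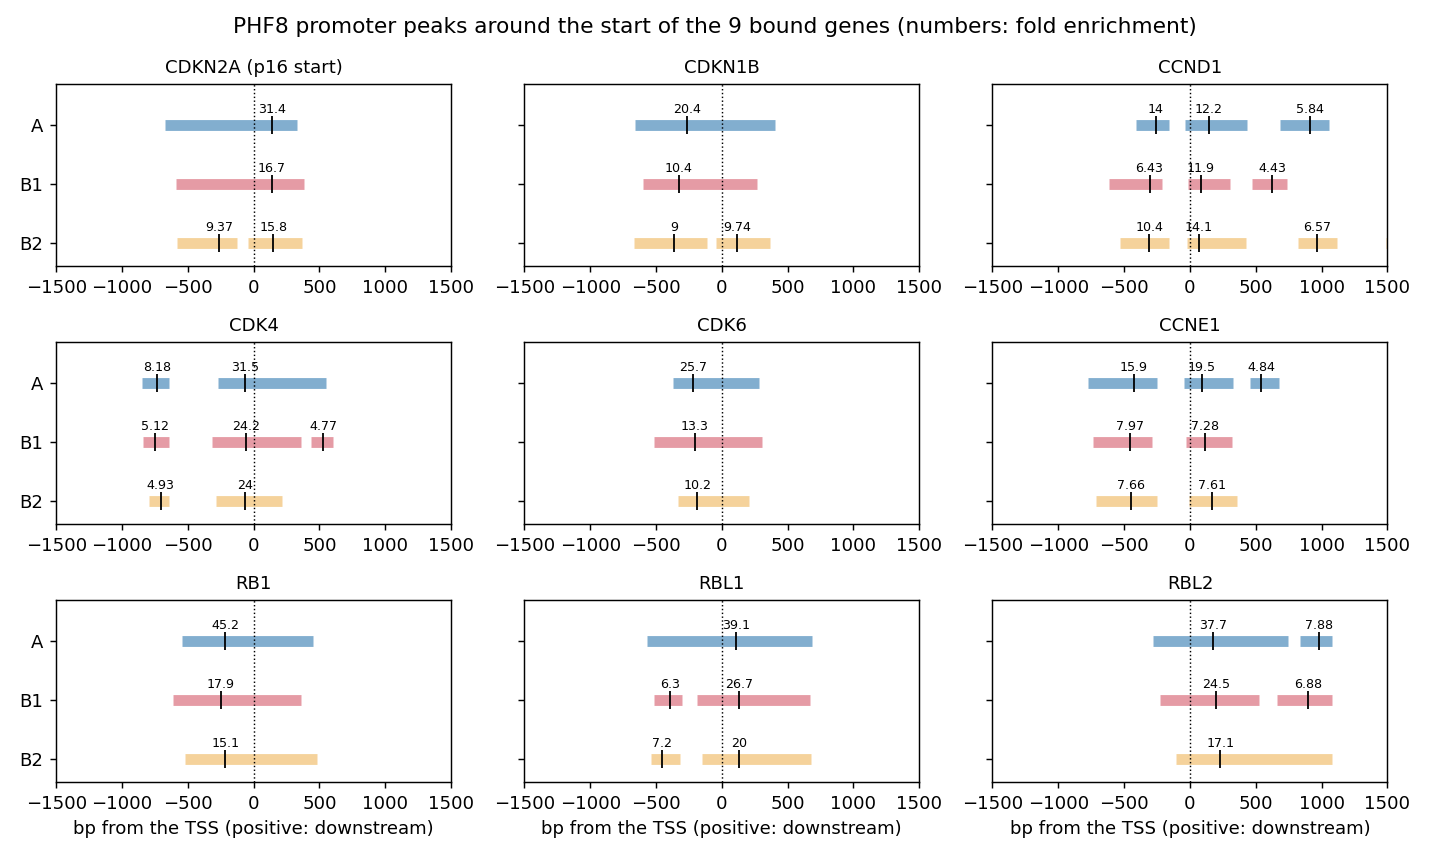
Promoter peaks (bars), their summits (black ticks) and fold enrichments (numbers) in A, B1 and B2, against the distance in bp from the reference TSS of each bound gene, with peaks beyond the axis not drawn. RB1 has a single wide peak in every replicate, and CCND1 and CCNE1 have several. The summits of the strongest peaks lie upstream of the TSS for CDK6 and RB1 and downstream for CDKN2A, RBL1 and RBL2.

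By mean percentile the pocket proteins were among the higher of the 10 genes. RB1 (ENSG00000139687), the tumor suppressor that gives the pathway its name, had a fold enrichment of 45.2, 17.9 and 15.1 in A, B1 and B2. Its percentile fell accordingly from 79.1 in A to 47.0 in B1 and 38.2 in B2 (mean 54.8 ± 21.6, SD, n = 3), the widest spread of the bound genes. The ratio of A to B was 2.74, at the 96.9th percentile of targets. The fragments did not show the same spread. RB1 carried 115, 78 and 81 fragments, with intervals of 94.9 to 138, 61.7 to 97.3 and 64.3 to 101. Their ratio was 1.45, at the 42.8th percentile of targets and close to the median of 1.49. The expected background at the summit was 1.57 fragments in A, the genome-wide level, against 3.40 in B1 and 4.44 in B2. Its part in the spread of fold enrichment was not tested.

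RBL1 (ENSG00000080839), which encodes p107, was the highest of the genes by mean percentile. Its fold enrichment was 39.1, 26.7 and 19.98 in A, B1 and B2, and its percentile was 66.5, 79.2 and 59.0 (mean 68.3 ± 10.2, SD, n = 3). It carried 143, 109 and 85 fragments, the most of any of the genes in each replicate, and ranking by fragments raised its mean percentile to 84.8. RBL2 (ENSG00000103479), which encodes p130, had fold enrichments of 37.7, 24.5 and 17.1 on 113, 86 and 77 fragments. Its percentile was 62.9, 72.2 and 47.6 (mean 60.9 ± 12.4, SD, n = 3). RBL1 was above RBL2 in all 3 replicates.

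**Figure D4:**
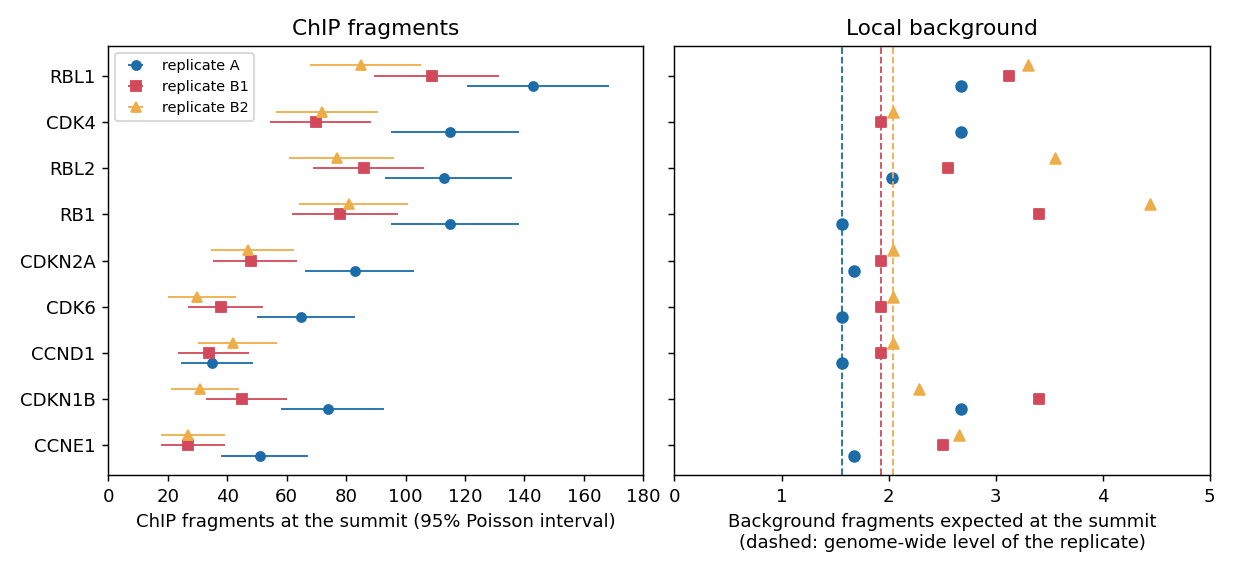
ChIP fragments at the summit of the strongest promoter peak with 95% Poisson intervals (left), and the background fragments expected there (right, dashed lines at the genome-wide level of 1.57, 1.93 and 2.04 in A, B1 and B2). RBL1 carries the most fragments in each replicate, and the background of RB1 is at the genome-wide level in A but 3.40 in B1 and 4.44 in B2.

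The position of the peak differed between these relatives. The RB1 summits lay upstream, 218, 250 and 216 bp before the TSS, in a single peak of 996, 975 and 1005 bp that also covered the start of the divergent transcript RB1-DT. Those of the strongest peaks lay 102, 123 and 122 bp downstream for RBL1 and 124, 146 and 178 bp downstream for RBL2. They fell within a coding exon of each gene, like the summit at the p16 start. RBL1 also had a weaker peak 394 bp upstream in B1 and 458 bp upstream in B2, with fold enrichments of 6.30 and 7.20. The summits of these weaker peaks lay outside RBL1, in a non-coding exon. Every promoter peak of RBL1, the strongest included, was shared with a promoter window of the gene ENSG00000269846, so its signal cannot be assigned to RBL1 alone. Within 100 kb of the pocket protein genes, no shared PHF8 region lay outside promoter windows, and the same held for CDKN2A, CDKN2B, CDK4 and CDK6. CDKN1B had 1 such region, with fold enrichments of 13.6, 6.73 and 5.40, in an intron 64407 bp downstream of the 5′ end of its record.

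Promoter sequences of RB1, RBL1 and CCND1 held letters of the E2F binding site, the element through which pocket proteins act on their targets. The letters searched were TTTCCCGC, TTTGGCGC, TTTGCCGC and TTTCGCGC on both strands, from 250 bases before to 50 bases after the TSS. These strings differ only in their middle letters, so that matches to different strings on the same strand cannot begin at the same base. At least 1 match stood in 762 of the 20163 promoters of protein-coding genes (3.78%), and in 5.44% of the CpG-island-like ones. RB1 held TTTCCCGC at base -18 counted from the TSS. RBL1 held TTTCGCGC at -26 and TTTGGCGC at -16, which do not overlap, and CCND1 held TTTGGCGC at -147. The letters were not in the windows of the remaining promoters, which says nothing of binding by E2F. The match of RB1 and both matches of RBL1 lay inside the PHF8 peak in all 3 replicates, whereas that of CCND1 lay in the gap between its upstream and start-site peaks in each. The sequences before these starts are shown for the place of the letters, which are in capitals:
RB1 start, chr13:48877730-48877879, plus strand: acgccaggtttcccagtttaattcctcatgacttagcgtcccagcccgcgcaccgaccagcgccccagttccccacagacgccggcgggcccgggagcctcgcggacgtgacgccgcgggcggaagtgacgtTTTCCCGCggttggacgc
RBL1 start, chr20:35724401-35724550, minus strand: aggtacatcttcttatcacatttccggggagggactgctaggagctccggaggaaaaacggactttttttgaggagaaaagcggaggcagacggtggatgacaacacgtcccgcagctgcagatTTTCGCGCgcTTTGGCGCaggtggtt
CCND1 start, chr11:69455774-69455923, plus strand: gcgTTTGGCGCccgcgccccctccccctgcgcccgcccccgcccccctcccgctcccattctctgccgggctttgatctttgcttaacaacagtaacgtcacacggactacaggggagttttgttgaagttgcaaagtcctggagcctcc

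From lowest to highest mean percentile the order was CCNE1, CDKN1B, CCND1, CDK6, CDKN2A, RB1, RBL2, CDK4 and RBL1. Because neighbours were sorted by these means, the sign of each mean difference was fixed. For most neighbours the mean difference was smaller than the SD of the paired differences. It was larger than that SD for CDKN1B above CCNE1, by 5.44 ± 3.15 percentile points, and CDKN2A above CDK6, by 17.1 ± 5.12 (SD, n = 3). Both pairs had the same direction in all 3 replicates. Of the 36 pairs of bound genes, 27 had the same order in every replicate. By fold enrichment, CCNE1, CDKN1B, CCND1 and CDK6 were each below CDKN2A and the 4 genes above it in all 3 replicates. This lower group of cyclins, a kinase and an inhibitor was read from the same ranks and depends on the measure. Ranked by fragments, CDKN1B stood at 32.3 and CDKN2A at 35.6, and in B2 CDKN1B had a peak of 48 fragments against 47. With a single TSS per gene, CDK4 fell to 11.5. With 3 replicates, an exact two-sided sign-flip test cannot go below 0.25, and none was run.

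Other genes of the G1 and RB pathway were described from a list of 25, of which 24 were targets (96%), against the 60.2% of protein-coding genes. A fold enrichment above 10 in all replicates was passed by 20 of the 25, against 49.6% of protein-coding genes. Most of the 25 had a CpG-island-like 5′ end, and 84.0% of such TSSs of protein-coding genes were bound. The gene without a peak was CCND2, cyclin D2, although its 5′ end was CpG-island-like. All 4 kinases and activating partners, all 4 inhibitors, all 6 genes of cyclin and inhibitor turnover and phosphatase, and all 6 MuvB and MYB genes were targets, and of the cyclins 4 of 5. The bound cyclins were the lowest group, with a median percentile of 24.6, followed by the inhibitors at 34.9. The MuvB and MYB genes stood at 55.9, the kinases at 59.9 and the turnover genes at 67.3, and the median over the 24 bound genes was 55.6.

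The highest of the list was SKP1, a core subunit of SCF ubiquitin ligases, with fold enrichments of 54.2, 36.3 and 34.0 and a mean percentile of 94.5 ± 1.83 (SD, n = 3). LIN9, a subunit of the MuvB complex that joins p107 and p130 in the DREAM repressor, followed with 51.2, 33.5 and 33.7 and 92.3 ± 3.03. CCND3, cyclin D3, reached 42.5, 39.8 and 41.2 and a mean percentile of 90.3 ± 14.1, lower in A than in both B replicates by percentile. The 3 D-type cyclins thus ranged from no peak at CCND2 through the low CCND1 to CCND3, which was above CCND1 in every replicate. The lowest were CCNA1, cyclin A1, with 5.32, 4.77 and 4.60 and a percentile of 1.07 ± 0.543, then CDKN1C, a relative of p27, with 12.9, 10.6 and 8.54 and 13.2 ± 4.65, and CDC25A, a phosphatase that activates CDK2, with 19.3, 10.5 and 8.69 and 16.8 ± 3.51. CDKN1C was low like CDKN1B, and CDKN2C and CDKN2D, the INK4 relatives outside 9p21, were both bound, unlike CDKN2B.

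**Figure D5:**
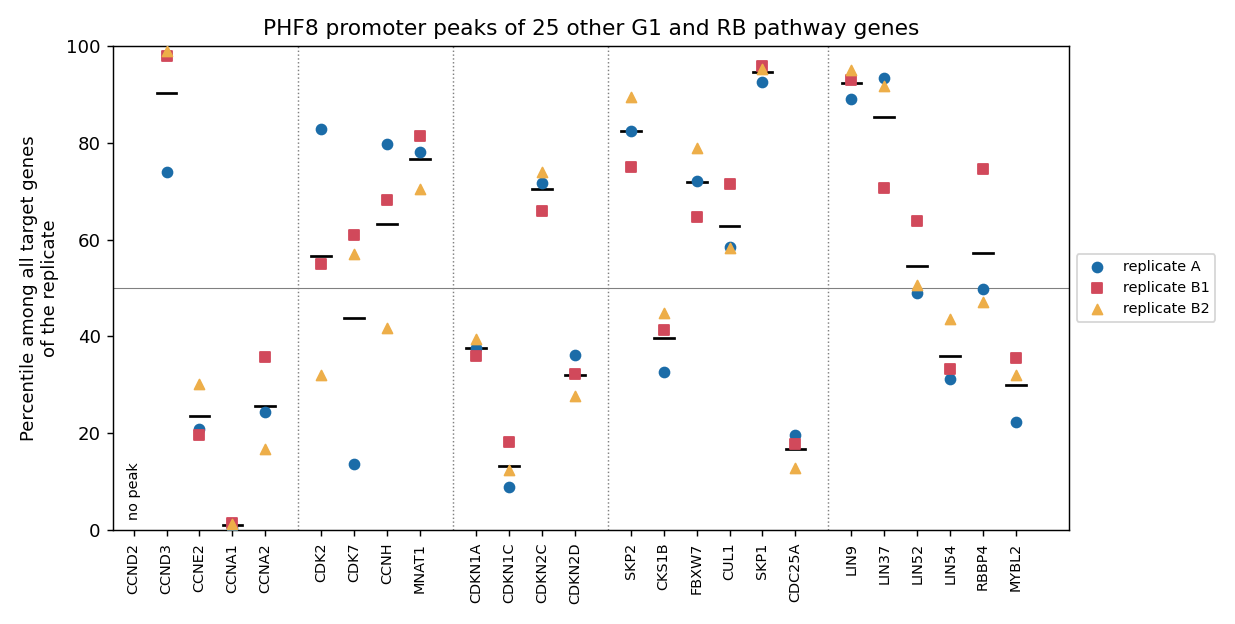
Percentile of the strongest promoter peak among all target genes of the same replicate for the 25 other pathway genes, grouped from left to right as cyclins, kinases, inhibitors, turnover and phosphatase, and MuvB and MYB (black bars are means over A, B1 and B2). CCND2 has no peak, CCNA1 lies at about 1, and SKP1 and LIN9 lie above 89 in every replicate.

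Markers of the melanocyte lineage were looked up as a check of the cell type. Of 7, SOX10, MITF and PMEL were targets, and MLANA, TYR, DCT and TYRP1 had no promoter peak in any replicate. The promoter windows of PMEL also took in the peaks of its neighbour CDK2. PHF8 peaks do not measure expression, so the cell type rests on the labels.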

How the data were processed

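PHF8 ChIP-seq peak lists of 3 replicates of SKMEL-147 were used, and the 2 inputs enter only through the values of the peaks. The authors aligned reads to hg19 with Bowtie2 at default parameters and ran MACS2 in narrow mode on every replicate against input, without pooling. Bowtie2, Picard and bcl2fastq are listed in the submitters' processing notes. The release of MACS2 is not given in the sources used here. Each deposited row gives a fold enrichment (a linear ratio), a p-value and a q-value as deposited −log10 values, a deposited score (10 times the −log10 q-value, not used) and the summit as an offset from the start. All values were used as deposited. Total depth per replicate is unknown.

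hg19 and GRCh37 share coordinates, and 0 peaks exceeded the length of their chromosome. Every transcript 5′ end of GENCODE release 44 lifted to GRCh37 counted as a TSS, without the mitochondrial genome. A target had a peak overlapping 1 kb on either side of any TSS by at least 1 base in all 3 replicates. The fragments at a summit were solved from fold enrichment, (n + 1) over (background + 1), and the Poisson p-value, which gave whole numbers for 100% of peaks within 0.001. Sequences were read from GRCh37. Sets of genes were chosen with earlier results of these data known: the 10 genes, the 25 other pathway genes and the 7 lineage markers were written by name. Named besides the 10 genes were the unbound, the 3 highest and the 3 lowest of the 25, the protein-coding genes within 1 Mb of CDKN2A and genes sharing a promoter peak. CDKN2C, CDKN2D, CDK2 and MIR31HG were added after their values were seen. With 1 group no test was run. Alternatives covered the cutoffs, TSS windows, TSS sets, overlap rule, ranking and replicates used. Scripts were tested on simulated data and run with Python 3.11.15, pandas 2.3.3, NumPy 2.4.6, SciPy 1.17.1 and pysam 0.24.0.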

Additional observations from a re-analysis of the deposited data

How the results depend on the processing

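The number of bound genes stayed at 9 of 10, and that of the other pathway genes at 24 of 25, with fold enrichment above 4, a q-value below 0.001, windows of 500 bp or 2 kb, the summit in the window, starts of protein-coding transcripts, or a peak in at least 2 replicates. A fold enrichment above 10 gave 7 and 20. A single TSS per gene gave 7, without CDKN2A and CDKN1B, and 23, without CDKN1A. Leaving out each replicate in turn gave 9 to 9 genes, 24 to 24 other genes, a median percentile of 40.2 to 45.4 and a stretch beside CDKN2A of 471.1 to 471.3 kb. The median percentile of the bound genes moved from 42.5 to 31.6 with a single TSS per gene and to 36.0 with recovered fragments. Of the single genes, CDK4 moved to 11.5 with a single TSS, and CDKN2A to 35.6, CDKN1B to 32.3 and RBL1 to 84.8 with fragments. The remaining 84 of 88 values of single genes moved by less than the SD between replicates. With a replicate left out a larger move was hardly possible, because that SD comes from the same replicates. A wide SD also covers sizeable shifts. RB1, with an SD of 21.6, stood at 54.8 in the main setting, 42.7 without A and 69.2 with fragments. The causes were not tested. The window of 10 kb around the CDKN2A starts leaves the length of the stretch as it is and gave no separate value. No paired analysis was possible because the inputs have no peak lists here and the replicates form a single group. Depth limits what the absence at CDKN2B and p14ARF can mean. No summit below 8 fragments in A and B1 or 10 in B2 was called anywhere. The level needed at these promoters may be higher, because their local background is not known.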
